A study of Oryza sativa with 6 samples.

Results

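The probe sets described here were bright in roots of the rice (Oryza sativa) variety Varadan and near background in roots of the variety Prasanna. They were chosen by level. The log2 signal was at least 8 on all 3 Varadan arrays and at most 5.5 on all 3 Prasanna arrays, and the probe set carried 1 locus in the annotation. Of 34860 probe sets with 1 locus, 53 met this rule (0.152%), and they belonged to 49 of 25727 loci. Genes of iron transport and of the nitrate transport partner NAR2 were to be left out. By a list of loci and by gene names, 0 of the 53 were found to belong to them. Most of the 49 loci had no name, so an unlisted gene of this kind could be missed. Another 8 probe sets met the levels without a locus and were not used. The mirrored rule, with Prasanna bright and Varadan near background, gave 44 probe sets of 37 loci.

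The study measured root RNA of 14-day-old hydroponic seedlings on Affymetrix rice arrays, 1 array per sample. Varadan had 1 array from seedlings moved to medium without nitrogen and 2 arrays from seedlings with supplemented nitrogen. Prasanna had the same 3 arrays, and before the treatment every seedling grew in nitrogen-containing Yoshida medium, a nutrient solution for rice. The labels do not tell whether the 2 replicates were grown apart, so any p-value here reflects the spread between these arrays alone, possibly a technical one. Values below are log2 MAS5 signals, the single-array summary of Affymetrix. Unless stated otherwise, the 3 values of a variety are given as without nitrogen, then with nitrogen, replicates 1 and 2.

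A probe set is a group of short probes, and several probe sets can report different stretches of 1 transcript. Rice varieties differ by gene deletions, by gene copies and by single bases. A gene that is absent or silent loses signal in all probe sets that match it alone. Probe sets that also match related transcripts can keep signal. A base change under the probes lowers the signal of the probe sets that cover it. The level rule cannot tell these apart, so other probe sets of the same loci and the loci beside them are described as well. The reference table gives names for 2 of the 49 loci: Os01g0905800 (FBA3), a fructose-bisphosphate aldolase of glycolysis, and Os07g0507000 (OsPP2C62), a type 2C protein phosphatase.

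The root markers OsRCc3 and OsLsi1 stood at 13.63 to 15.21 on the Varadan arrays and at 14.31 to 14.75 on the Prasanna arrays. The other root marker, OsNAR2.1, varied more, at 12.51, 12.20 and 10.75 in Varadan, against 12.61, 9.68 and 11.30 in Prasanna. The mean of 5 green tissue genes stood at 14.04, 13.21 and 11.87 in Varadan, against 12.30, 11.90 and 10.98 in Prasanna. The 3' minus 5' difference of the GAPDH control, which depends on RNA integrity and labelling, came to 4.38 to 4.77 in Varadan and 3.06 to 3.52 in Prasanna, without overlap. A second GAPDH pair gave 0.57, 3.24 and -1.28 in Varadan, against -3.81, 4.76 and -2.08 in Prasanna, and here the varieties overlapped. The actin difference was 5.15 to 5.82 in Varadan, against 5.15 to 5.23 in Prasanna, and overlapped as well. The part of these differences in the results was not tested. The 2 deposited tables disagree on which values belong to Varadan without nitrogen and which to replicate 1 of Varadan with it: the columns are swapped. The level rule treats the 3 Varadan arrays alike, so the same 53 probe sets were found in either table.

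The values that chose the members are given as a description. The mean over the Varadan arrays ran from 8.32 to 12.49, with a median of 9.18. The highest of the 3 Prasanna readings had a median of 4.79 and went up to the limit of 5.5. The 40th percentile of an array, 4.89 to 5.42, served as the background level, and 32 of 53 probe sets lay below it on all 3 Prasanna arrays. With readings under that level raised to it, Varadan was higher by 3.09 to at least 7.46 log2 (8.49 to 176-fold), with a median of at least 4.14 (17.6-fold). Readings under that level have no meaningful order, so the values are lower bounds, except for Os10g0315400 (3.09), where no Prasanna reading was raised.

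**Figure D1:**
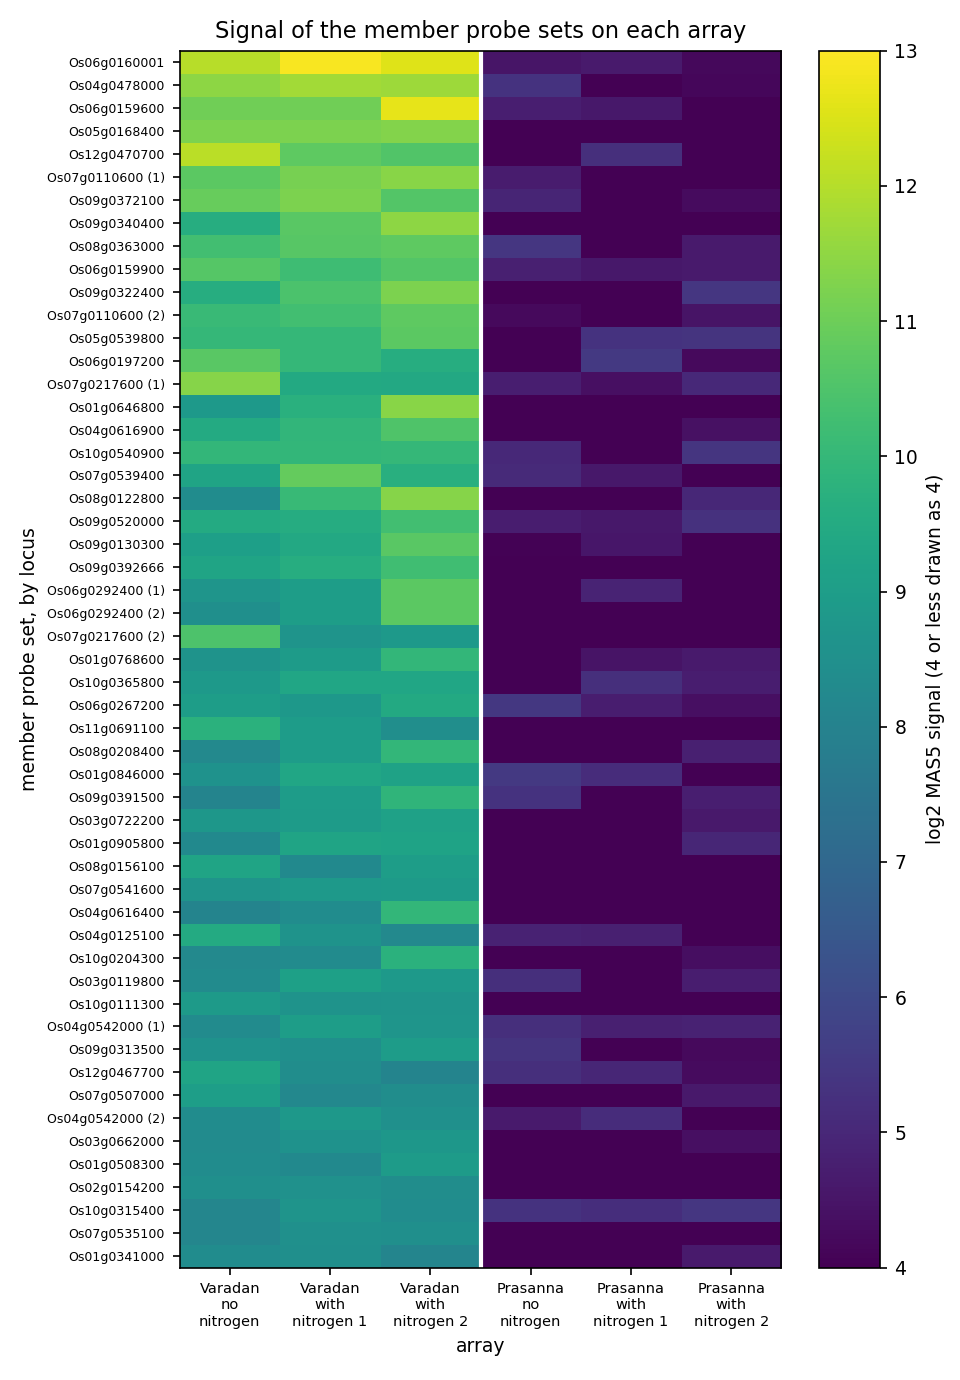
Signal of the 53 member probe sets (rows, sorted by the Varadan mean and labelled by locus; numbers in brackets mark 2 probe sets of 1 locus) on 3 Varadan arrays (left) and 3 Prasanna arrays (right). Colour is the log2 MAS5 signal. All Varadan readings are at least 8 and all Prasanna readings at most 5.5, as the rule requires.

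Os06g0160001 was the brightest. It read 12.03, 12.90 and 12.55 in Varadan, against 4.50, 4.66 and 4.19 in Prasanna, a difference of at least 7.46. Os04g0478000 followed with 11.46, 11.75 and 11.69 in Varadan, against 5.31, 2.77 and 4.16 in Prasanna (at least 6.54). For both, the Varadan readings lay within 1 log2 of each other. Os12g0470700, annotated as a pseudogene, read 12.07, 10.78 and 10.56 in Varadan, against 1.39, 5.21 and 0.97 in Prasanna (at least 6.05). Its Varadan readings were more spread, with the array without nitrogen the highest in the log2 values used. The 2 member probe sets of Os07g0110600 read 10.74, 11.14 and 11.42 and 10.09, 10.29 and 10.77 in Varadan, against 4.69, -0.26 and 1.46 and 4.24, 2.88 and 4.46 in Prasanna. Os09g0372100 read 10.92, 11.24 and 10.61 in Varadan, against 4.94, 0.88 and 4.28 in Prasanna. At both loci the lowest Varadan reading lay far above the highest Prasanna reading. Near the limits, Os04g0616400 (lowest Varadan reading 8.05), Os12g0467700 (8.07) and Os09g0391500 (8.08) were just inside, and Os11g0687800 (7.96), Os12g0503200 (7.96) and Os11g0654800 (7.96) just outside. On the Prasanna side, Os06g0197200 (highest reading 5.5), Os01g0846000 (5.49) and Os06g0267200 (5.46) were just inside. Os04g0477900 (5.52), Os12g0105500 (5.53) and Os06g0301500 (5.53) were just outside.

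For 4 loci, 2 probe sets met the rule: Os07g0110600, Os07g0217600, Os06g0292400 and Os04g0542000. Except at Os07g0110600, the names of the 2 differ by the suffix alone, so they may cover the same stretch. For 24 loci the member was the only probe set on the array. Outside the rule, 23 loci had another 32 probe sets. These share the arrays and the variety contrast with the rule, so they are described and not tested. Of the 32, 13 had every Varadan array above every Prasanna array with means at least 1 log2 apart. Over all probe sets with 1 locus 3.82% were separated in this way. Another 7 read at least 8 on all 6 arrays without such a separation, a level that 38.7% of all probe sets with 1 locus reached, 1 was separated in the opposite direction and 11 were none of these. By locus, 12 of 23 had another probe set that was higher in Varadan, 6 had one that was bright in both varieties, with Os06g0159600 in both groups, and 6 had neither.

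**Figure D2:**
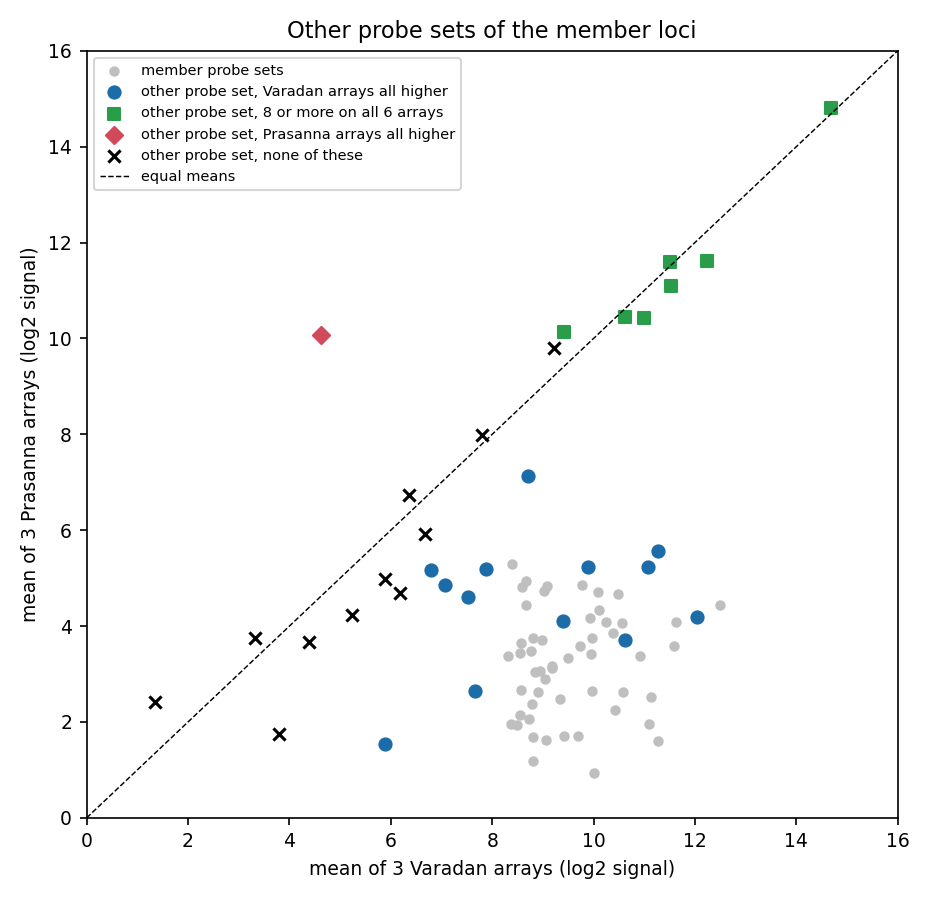
Mean log2 signal of the other 32 probe sets of the member loci on 3 Varadan arrays (x) and 3 Prasanna arrays (y), with the member probe sets in grey. Of the others, 13 lie below the line with all Varadan arrays higher (circles), 7 lie near it at 8 or more on all 6 arrays (squares) and 1 lies far above it (diamond).

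At the loci of the first kind, other probe sets gave a difference in the same direction. For Os12g0470700, Os07g0110600, Os09g0391500, Os10g0540900 and Os07g0539400, such a probe set shares a member's name apart from the suffix. It may cover the same stretch as the member, and no probe sequence was used to check this. Os12g0470700 read 13.11, 11.58 and 11.43 in Varadan on another probe set, against 6.10, 2.14 and 4.35 in Prasanna. One more gave 10.89, 9.48 and 9.29 in Varadan, against 6.30, 4.29 and 5.10 in Prasanna. All 3 probe sets of this pseudogene were brightest on the Varadan array without nitrogen. The other deposited table gives that array's values to replicate 1 with nitrogen, so this order depends on which table is right. Os07g0110600 had 10.90, 11.01 and 11.31 in Varadan on its remaining probe set, against 4.72, 5.38 and 5.60 in Prasanna. Os05g0539800 had 10.86, 11.07 and 11.86 in Varadan on its other probe set, against 5.84, 5.89 and 4.99 in Prasanna. Os09g0391500, annotated as a long non-coding RNA (lncRNA), had 9.18, 10.74 and 11.92 in Varadan, against 5.56, 1.40 and 4.14 in Prasanna. None of these 5 probe sets met the rule, because at least 1 Prasanna reading was above 5.5. Os10g0540900 gave 9.26, 9.51 and 9.41 in Varadan, against 1.27, 5.76 and 5.31 in Prasanna. Others of this kind were dimmer. Os06g0292400 (7.18, 7.47 and 8.98 in Varadan, against 5.03, 5.32 and 5.23 in Prasanna) and Os10g0365800 (8.26, 8.75 and 9.09 in Varadan, against 7.25, 7.20 and 6.91 in Prasanna) are examples. The remaining probe sets higher in Varadan belonged to Os04g0616400, Os06g0159600, Os07g0539400, Os07g0541600 and Os09g0372100. Their differences were at least 0.94 to 2.63 log2.

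At the loci of the other kind another probe set was bright in both varieties. For Os10g0315400, Os05g0168400 and Os06g0159600 this probe set is of the kind that can match related transcripts, as is the dimmer one of FBA3. Such a signal may not come from the locus alone. At Os10g0315400 and Os05g0168400 the bright probe set also shares the member's name apart from the suffix, so it may cover the same stretch. The aldolase FBA3 read 8.26, 9.24 and 9.23 in Varadan on the member probe set, against 0.75, 2.17 and 4.97 in Prasanna. Its brightest probe set stood at 14.71, 14.69 and 14.62 in Varadan, against 15.05, 14.55 and 14.79 in Prasanna, and the remaining one at 11.29, 11.29 and 11.97 in Varadan, against 11.30, 11.20 and 12.25 in Prasanna. The varieties overlapped on both. OsPP2C62 read 9.05, 8.21 and 8.43 in Varadan on the member probe set, against 1.74, 1.68 and 4.60 in Prasanna. Its other probe set gave 10.77, 10.93 and 11.31 in Varadan, against 10.22, 10.45 and 10.63 in Prasanna, a difference of 0.57 with no overlap. Os10g0315400 read 10.23, 10.61 and 11.01 in Varadan on its other probe set, against 10.07, 10.52 and 10.72 in Prasanna. Os01g0646800 had 8.55, 9.08 and 10.60 in Varadan, against 8.76, 10.80 and 10.86 in Prasanna.

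Os05g0168400 had probe sets that pointed opposite ways. The member read 11.24, 11.23 and 11.34 in Varadan, against 3.20, -0.17 and 1.76 in Prasanna. A second probe set read 2.44, 6.08 and 5.32 in Varadan, against 10.16, 9.95 and 10.09 in Prasanna. The last was bright throughout, at 12.23, 12.37 and 12.09 in Varadan, against 11.39, 11.63 and 11.81 in Prasanna. The member and the second probe set thus separated the varieties in opposite directions, and the last differed by 0.62. For these 5 loci, and for Os06g0159600, the member probe set read near background in Prasanna while another probe set of the locus was bright there. In 15 of 49 loci the brightest probe set was not a member.

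The other 6 loci had probe sets that were low or did not separate the varieties. For Os10g0111300 one read 7.98, 7.71 and 7.70 in Varadan, against 8.11, 7.94 and 7.92 in Prasanna. The lncRNA Os09g0520000 had 6.75, 6.31 and 6.02 in Varadan, against 6.95, 6.66 and 6.61 in Prasanna. Os08g0208400 gave 6.13, 7.16 and 6.75 in Varadan, against 4.71, 6.53 and 6.51 in Prasanna. The varieties overlapped on each of these. The remaining probe sets, a second one of Os10g0111300 and those of Os01g0508300, Os03g0662000 and Os04g0478000, had at least 1 reading of each variety under 5.5. Under the mirrored rule, 15 of 32 other probe sets were likewise higher in Prasanna, 3 were bright on all 6 arrays and 2 were separated the opposite way.

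By the suffix of the probe set name, 40 of 53 members were designed to match 1 transcript, against 76.7% of all probe sets with 1 locus. Types that can match several related transcripts made up 6 members (suffix s, 11.3% against 6.32% of all) and 5 members (suffix x, 9.43% against 13.2%). Of the 32 other probe sets of the member loci, 5 had suffix s and 7 had suffix x. A further 3 probe sets that list a member locus among several were not used.

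In the gene order of the RefSeq assembly ASM3414082v1, 37 of the 49 loci found a place. Of these, 3 loci, Os06g0159600, Os06g0159900 and Os06g0160001, followed each other with 0 annotated genes between. Os06g0159900 read 10.64, 10.19 and 10.60 in Varadan, against 4.79, 4.59 and 4.66 in Prasanna, and Os06g0159600 read 11.05, 11.06 and 12.67 in Varadan, against 4.76, 4.58 and 1.44 in Prasanna. A second probe set of Os06g0159600, of the kind that can match related transcripts, read 11.06, 10.63 and 12.91 in Varadan, against 9.42, 12.05 and 11.84 in Prasanna. Another gave 6.24, 6.44 and 7.71 in Varadan, against 5.04, 5.03 and 5.45 in Prasanna. The locus before them, Os06g0159501, was bright in both varieties but higher in Varadan, at 12.87, 13.49 and 12.90, against 10.59, 9.67 and 10.53 in Prasanna. Further on, Os06g0161300 read 9.60, 10.00 and 10.15 in Varadan, against 3.82, 1.91 and 6.05 in Prasanna. Of the 5 loci between them, Os06g0160600, Os06g0160700 and Os06g0160800 overlapped between the varieties. The brightest probe set of Os06g0160400 did not, at 11.70, 12.02 and 12.01 in Varadan, against 10.51, 11.12 and 11.12 in Prasanna, a difference of 0.99. Os06g0160200 did not overlap either, at 2.35, 3.69 and 4.96 in Varadan, against -0.14, 1.05 and 1.32 in Prasanna, readings that have no meaningful order. Over 21 loci around Os06g0159900, 10 of 28 probe sets were separated as defined above (every Varadan array above every Prasanna array, means at least 1 log2 apart), against 3.82% of all probe sets with 1 locus. The 10 include the 3 members, which are separated by the rule itself, and Os06g0160200, which lay near or below background on all 6 arrays. The stretch was chosen because the members lie there.

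**Figure D3:**
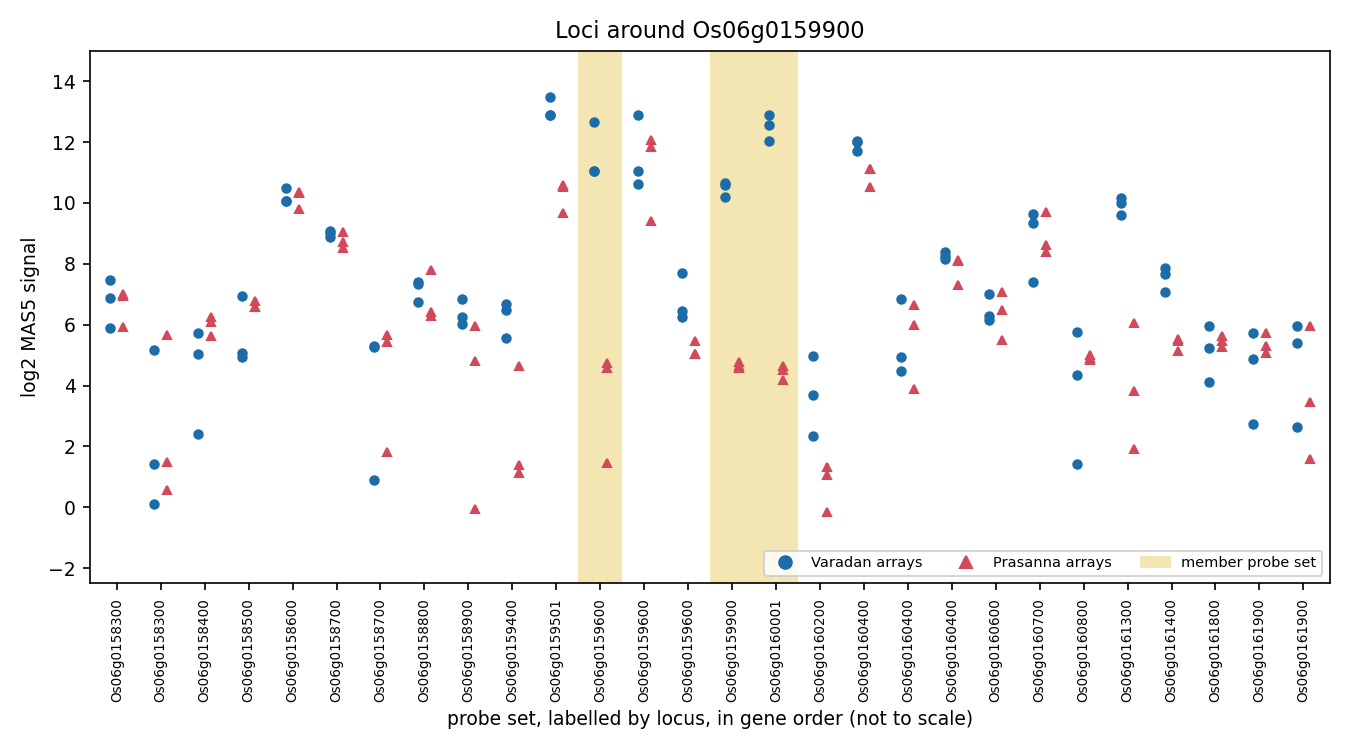
Log2 MAS5 signal of 28 probe sets of 21 loci around Os06g0159900 in gene order, with 3 Varadan arrays (circles) and 3 Prasanna arrays (triangles) each; spacing is not to scale. Shaded columns are the 3 member probe sets, where Varadan lies above 10 and Prasanna below 5.

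Among the loci beside the members, a larger share was higher in Varadan than among the loci at large. The nearest 2 loci with a probe set on each side of the 37 placed members made 139 loci, each read by its brightest probe set. Of these, 25 were separated with Varadan higher (18.0%), against 3.01% of all loci in the order except the members, a set that holds these neighbours too. They lay beside 21 of the 37 members. At Os08g0122700, Os07g0535200 and Os06g0159501, which are among the separated, the probe set name starts with the same number as that of a member nearby. Whether such pairs report related transcripts was not tested. Prasanna was higher at 6 of the 139 (4.32%), against 2.91% of that set. With the nearest locus only, 20 of 70 were higher in Varadan (28.6%), and with 5 on each side 41 of 340 (12.1%). Some of these separations rest on readings near background. With every Varadan array also above the 40th percentile, 21 of 139 remained (15.1%), against 2.33% of that set.

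**Figure D4:**
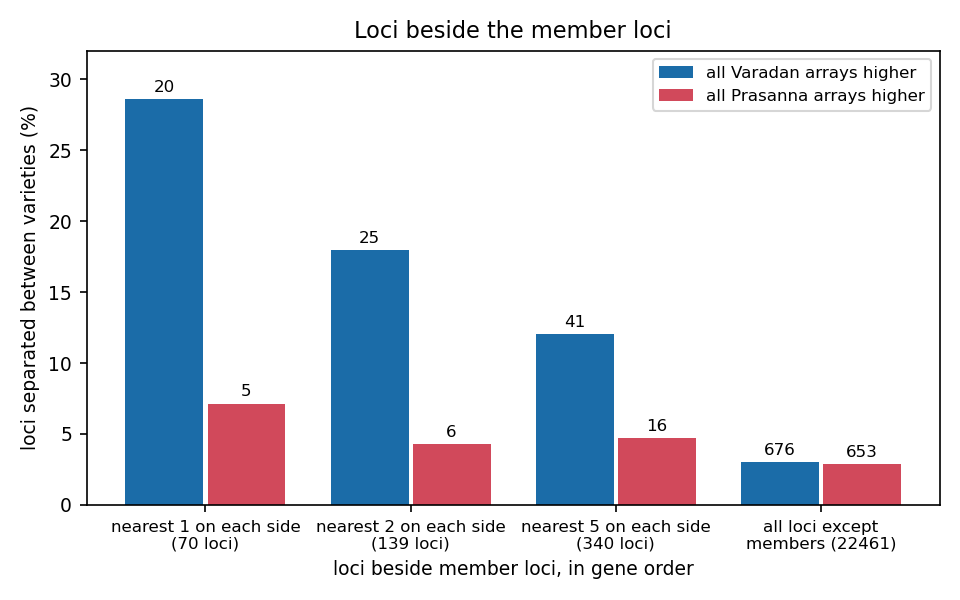
Share of loci whose 3 arrays of one variety all lie above those of the other with means at least 1 log2 apart, for the nearest 1, 2 and 5 loci on each side of a member and for all loci in the gene order except the members. Numbers over the bars are loci. The share higher in Varadan is 28.6%, 18.0%, 12.1% and 3.01% in that order, and the share higher in Prasanna is 7.14%, 4.32%, 4.71% and 2.91%.

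Several of these neighbours differed nearly as much as the members. Os04g0477900, next to Os04g0478000, read 10.95, 11.05 and 10.89 in Varadan, against 5.52, 2.81 and 4.76 in Prasanna. It missed the rule by its highest Prasanna reading alone. Os10g0366400, beside Os10g0365800, read 9.87, 10.10 and 10.43 in Varadan, against 5.58, 4.85 and 5.37 in Prasanna. Os09g0390400, beside Os09g0391500, had 9.58, 10.25 and 10.60 in Varadan, against 5.76, 5.54 and 6.33 in Prasanna. In each case the groups were more than 3 log2 apart. Os09g0310800, beside Os09g0313500, read 7.92, 8.68 and 9.50 in Varadan, against 0.67, 0.45 and -0.03 in Prasanna. Beside Os07g0110600 the next 2 loci were bright in both varieties and higher in Varadan. Os07g0110800 had 13.06, 12.66 and 11.89 in Varadan, against 10.64, 9.03 and 9.27 in Prasanna, and Os07g0110900 was higher by 2.65. A named neighbour was Os07g0541500 (CRK10), a cysteine-rich receptor-like kinase beside Os07g0541600. It read 7.44, 5.89 and 7.41 in Varadan, against 5.73, 1.17 and 4.42 in Prasanna.

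By the number in the locus name, chromosome 9 carried 8 of the 49 loci (16.3%, against 5.5% of all loci on the array). Chromosomes 1, 6 and 7 carried 6 each, against 14.7%, 7.97% and 7.75% of all loci, and chromosomes 4 and 10 carried 5 each. Chromosome 2 had 1, Os02g0154200, against 11.3% of all loci, and chromosome 11 had 1, Os11g0691100. Of the 8 loci on chromosome 9, 6 had a place in the order, with 49 to 823 annotated genes from one to the next. Os09g0372100 and Os09g0392666 had no place, and by its number Os09g0392666 follows closely on Os09g0391500.

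A larger share of the members than of other loci was annotated as long non-coding RNA, a pattern noticed after the values were seen. Of the 37 loci with an entry in the reference table, 10 were lncRNA (27.0%), 26 protein-coding and 1 a pseudogene. Over all loci with an entry 2.25% were lncRNA, and over loci with a probe set at 8 or more on all 3 Varadan arrays 0.817%. Under the mirrored rule 2 of 24 were lncRNA (8.33%). The 10 were Os01g0508300, Os06g0267200, Os07g0541600, Os08g0122800, Os09g0130300, Os09g0322400, Os09g0340400, Os09g0391500, Os09g0520000 and Os10g0204300. Os09g0340400 read 9.61, 10.69 and 11.47 in Varadan, against 4.01, 3.70 and 0.18 in Prasanna. Os09g0322400 read 9.61, 10.45 and 11.22 in Varadan, against 0.50, 0.82 and 5.41 in Prasanna. All 10 were highest on replicate 2 with nitrogen among the Varadan arrays. This array was also the highest for 76 of 109 other lncRNA probe sets at 8 or more on all Varadan arrays (69.7%), and for 43.2% of all probe sets at that level. Entries in the table were found for 75.5% of member loci and for 87.5% of all loci, so a larger part of the members could not be classed.

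Within Varadan, the members were compared between the array without nitrogen and the 2 arrays with supplemented nitrogen, a contrast that the rule did not use. The Prasanna readings, at or near background by the rule, are not interpreted for nitrogen. They still entered the test, which took its spread from the replicates with nitrogen of both varieties. For Os10g0540900 the Varadan replicates read 9.95 and 9.99 and the Prasanna replicates 0.86 and 5.38, with an SE of 1.76. The counts of members below thus depend in part on the rule. They cannot show whether members respond less to nitrogen than other probe sets. None of the 53 members passed limma's test with Benjamini-Hochberg adjustment over 34316 probe sets (smallest adjusted p = 0.338), and 0 of all tested probe sets passed (0%). At an unadjusted p under 0.05 there were 3 of 53 members, against 12.8% of all tested probe sets. Without replicate 1 of Varadan with nitrogen, 245 probe sets passed, of which 0 were among the 52 members tested (smallest limma adjusted p of a member 0.122). That fit sets 1 Varadan array against 1, takes its spread from the Prasanna replicates alone, and keeps the array without nitrogen, whose label is as much in doubt.

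The 2 probe sets of Os07g0217600 read highest without nitrogen. The first stood at 11.37 without nitrogen, against 9.46 and 9.43 with it, a difference of 1.93 ± 0.46 (SE; limma, adjusted p = 0.338). The second stood at 10.50 without nitrogen, against 8.67 and 8.85 with it (1.74 ± 0.62, limma adjusted p = 0.371). In Varadan the neighbour Os07g0218700 also read highest without nitrogen, at 10.50, against 7.66 and 6.01 with it. The order at this neighbour, too, depends on which deposited table is right. The lncRNA Os08g0122800 went the other way, at 8.38 without nitrogen, against 10.06 and 11.36 with it (-2.34 ± 0.78, limma adjusted p = 0.364). With the exchanged columns of the series matrix these 3 differences were -0.94, -1.005 and 0.19, so their direction depends on which table is right. Os01g0646800, at 8.87 without nitrogen, against 9.72 and 11.40 with it, read -1.69 ± 0.97 and kept its direction (-0.42). The stronger of the 2 probe sets of Os06g0292400 by p, at 8.47 without nitrogen, against 9.02 and 10.74 with it, differed by -1.41 ± 0.98 and also kept its direction. Os12g0467700 stood at 9.25 without nitrogen, against 8.42 and 8.07 with it, and Os11g0691100 at 9.76 without nitrogen, against 8.99 and 8.45 with it. The direction of both turned in the series matrix. Each of these had a limma adjusted p of 0.484 or more.

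**Figure D5:**
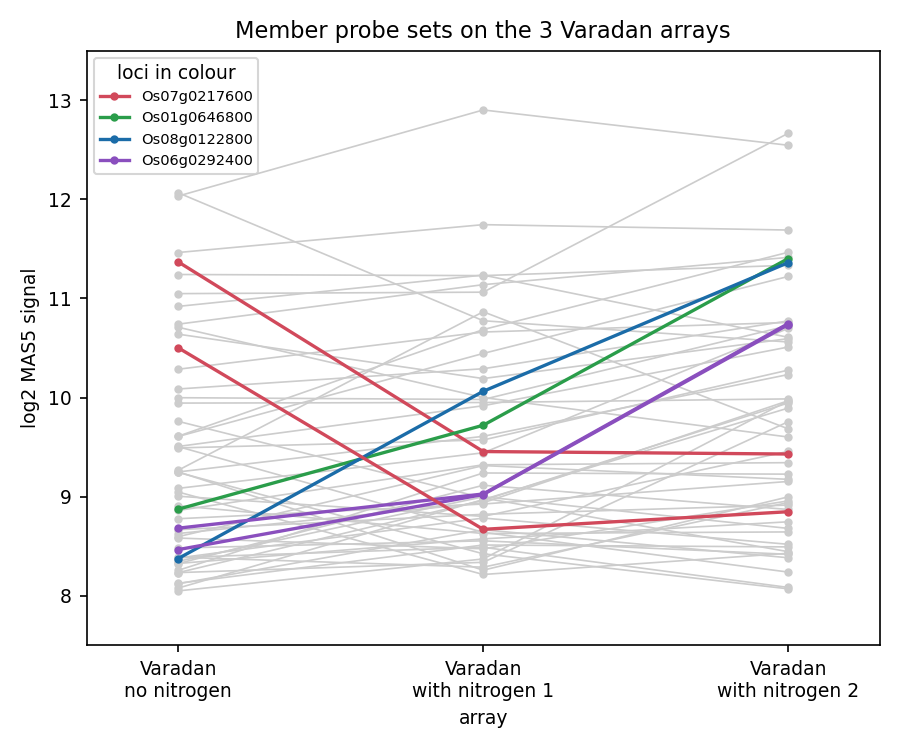
Log2 MAS5 signal of the 53 member probe sets on the Varadan array without nitrogen and replicates 1 and 2 with nitrogen, each line 1 probe set. Os07g0217600 (2 probe sets) is highest without nitrogen, while Os08g0122800, Os01g0646800 and Os06g0292400 (2 probe sets) are highest on replicate 2.

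The range over the 3 Varadan arrays was under 1 log2 for 31 of 53 members (58.5%), against 76.9% of all probe sets at 8 or more on the Varadan arrays. Its median was 0.83 for the members, against 0.61 for those probe sets, and it was at least 2 for 4 members. Os10g0540900 was the steadiest, at 9.94, 9.95 and 9.99. Os08g0122800 had the widest range (2.99), followed by Os01g0646800 (2.53) and the 2 probe sets of Os06g0292400 (2.27 and 2.06). The difference without minus with nitrogen was below 0 for 41 of 53 members (77.4%), with a median of -0.40. Over all tested probe sets 49.2% were below 0 and the median was 0.02, and over those at 8 or more on the Varadan arrays 57.7% were below 0 and the median was -0.11. In the series matrix the members' median was -0.12. The highest Varadan array was replicate 2 with nitrogen for 29 of 53 members (54.7%), replicate 1 for 13 (24.5%) and the array without nitrogen for 11 (20.8%). Over all probe sets at 8 or more on the Varadan arrays these shares were 43.2%, 25.9% and 30.9% in the same order. Replicate 2 was also the Varadan array with the lowest mean of green tissue genes, and the part of this in the order of the arrays was not tested.

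For 26 loci no probe set outside the rule was on the array, so the variety difference rests on the members alone. They include Os06g0160001, Os08g0363000 (10.29, 10.66 and 10.76 in Varadan, against 5.42, 2.09 and 4.65 in Prasanna) and Os04g0616900 (9.51, 9.92 and 10.51 in Varadan, against 1.40, 2.16 and 4.39 in Prasanna). Os09g0392666, with 9.25, 9.61 and 10.23 in Varadan and 1.05, 1.94 and 2.13 in Prasanna, had no entry in the table. The dimmest, Os01g0341000, had 8.39, 8.49 and 8.08 in Varadan, against 1.81, 3.70 and 4.65 in Prasanna. Whether an absent gene or a base change under the probes has a part in any of these differences was not tested. Where RNA levels do differ, fewer cells that express a gene and less RNA per cell cannot be told apart in bulk roots.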

How the data were processed

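Root RNA of 6 samples was hybridised to Affymetrix rice arrays. The authors deposited MAS5 signals, per the labels' processing notes, as a table of log2 values and as a series matrix of linear intensity values. The MAS5 version, detection calls and genome build are not given in the sources used. The log2 values were used as deposited. No depth applies to arrays, and their number limits the precision. Of 57381 probe sets, 187 controls were left out. Names and biotypes came from the reference table (assembly ASM3414082v1), matched by gene ID. The tables used hold no gene products, so the planned grouping by product was not made, and no sequence was used. The nitrogen contrast in Varadan was fitted with limma 3.58.1 in R 4.3.3 (1 mean per variety and supply, eBayes with trend). Probe sets whose mean lay at or above the 40th percentile were used. The fit was also run on simulated data with the same spread for all probe sets. Those data do not mimic the noisier readings near background, so they cannot show how well changes of the members would be found. The lone arrays without nitrogen are assumed to vary like the others. A locus stands in the gene order by its brightest probe set. Named loci were those brightest in Varadan, those with the smallest p for nitrogen, those with a name or another probe set, runs, and those at the limits. Neighbours, the mirrored rule and lncRNA readings were named after their values were seen. Members and lists were chosen with earlier results of these data known.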

Additional observations from a re-analysis of the deposited data

How the results depend on the processing

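The number of members followed its limits: 70 with a Varadan limit of 7.5 and 31 with 8.5, and 32 with a Prasanna limit of 5 and 90 with 6. Quantile normalization gave 54 (49 shared with the 53), the series matrix the same 53, and leaving out 1 array 55 to 75. The count of other probe sets higher in Varadan stayed at 11 to 15 and that of neighbours at 20 to 29 under the alternatives, except 41 with 5 loci on each side, where more loci were counted. The requirement of Varadan readings above the 40th percentile was added after seeing the data. For nitrogen in Varadan, 0 members passed under all 9 alternatives, and 0 of all probe sets passed except 245 without replicate 1 of Varadan, a fit of 1 Varadan array against 1 that rests on the spread of the Prasanna replicates alone; with 1 replicate left out the counts of all probe sets were 0 to 245. Signs in the series matrix were compared only for the members with the smallest p for nitrogen. Among these the difference changed sign for both probe sets of Os07g0217600 (-0.94 and -1.005), Os08g0122800 (0.19), Os12g0467700 (-0.23), Os06g0160001 (0.61), Os06g0197200 (-0.16) and Os11g0691100 (-0.12). In that matrix 2 Varadan arrays trade places, so the signs of other members can turn as well. No paired analysis was possible because Varadan had 1 array without nitrogen and the labels number no array but the second replicates. MAS5 signals near background are noisy, which limits every Prasanna reading here. In the main fit these readings are also part of the spread used to test the members for nitrogen.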
